A study of Mus musculus with 12 samples.

Results

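The genes described are 10 members of the interleukin-1 (IL-1) family and the inflammasome pathway: Il1a, Il1b, Il18, Il33, Il1r1, Il1rn, Nlrp3, Casp1, Casp4 and Gsdmd. They were chosen by name, as the rows of the day 3 and day 7 expression tables that carry these symbols, and all 10 were found among the 54367 genes of each table. The values come from poly(A) RNA of wildtype C57BL/6 mouse retinas, from animals aged 8 to 12 weeks. Right eyes received burns from a 532 nm laser with a spot of 75 µm and pulses of 0.1 s, and left eyes, not burned, were the controls. All animals were anaesthetised and had their pupils dilated. Retinas were taken 3 or 7 days later, giving 4 groups of 3 libraries: lasered and control on day 3, and lasered and control on day 7. The control is therefore the other eye of a lasered animal, and retinas of animals that were never lasered are not part of the comparison. The titles number the libraries 1 to 3 in each group, but the labels do not say that equal numbers mark the eyes of 1 mouse, and p-values therefore reflect only the spread among these libraries, which may be partly technical.

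IL-1 alpha and IL-1 beta are cytokines that signal through the receptor encoded by Il1r1, and the product of Il1rn occupies that receptor without activating it. IL-1 beta and IL-18 are made as inactive precursors, which caspase-1 cleaves after a sensor such as NLRP3 has assembled an inflammasome. Caspase-1 and mouse caspase-4, also called caspase-11, also cut gasdermin D, whose fragment opens pores in the cell membrane, whereas IL-33 and IL-1 alpha can act without caspase-1. Messenger RNA levels say nothing of cleavage or release of these proteins.

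The start sites of several of these genes are shown because their RNA is scarce in control retina and was found in lasered retina. Across the lasered day 3 libraries 9 of the 10 members also ran in the same order, Il1a being the exception. Of the 10 members, 9 had an entry in the RefSeq promoter table (build GRCm38.p6), and the 250 bases before the annotated start were searched on both strands for 5 motifs of inflammatory gene regulation. These were the NF-kB motif GGANNTTCC, the AP-1 motif TGANTCA, the C/EBP motif TTNNGCAA, the PU.1 core GAGGAA and the interferon-response motif GAAANNGAA, where N is any base. Each sequence runs 5′ to 3′ along the strand of its gene and ends at the base before the start, and capitals mark the matches.
Il1a (chr2:129309973-129310222, minus strand): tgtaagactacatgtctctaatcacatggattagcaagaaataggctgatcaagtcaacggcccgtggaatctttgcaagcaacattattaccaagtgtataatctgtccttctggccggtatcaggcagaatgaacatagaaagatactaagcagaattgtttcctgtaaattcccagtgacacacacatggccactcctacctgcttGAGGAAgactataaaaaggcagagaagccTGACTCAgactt
Il1b (chr2:129371140-129371389, minus strand): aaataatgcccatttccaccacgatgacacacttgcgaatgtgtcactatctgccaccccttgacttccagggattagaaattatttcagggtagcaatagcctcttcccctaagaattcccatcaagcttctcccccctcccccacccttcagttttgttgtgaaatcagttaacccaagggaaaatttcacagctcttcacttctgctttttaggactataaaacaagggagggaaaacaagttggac
Il1rn (chr2:24336610-24336859, plus strand): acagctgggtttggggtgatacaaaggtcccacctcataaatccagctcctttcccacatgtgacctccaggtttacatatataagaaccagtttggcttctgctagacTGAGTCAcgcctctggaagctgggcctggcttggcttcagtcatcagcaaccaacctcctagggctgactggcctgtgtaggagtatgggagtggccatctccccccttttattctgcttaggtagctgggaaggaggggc
Casp1 (chr9:5298267-5298516, plus strand): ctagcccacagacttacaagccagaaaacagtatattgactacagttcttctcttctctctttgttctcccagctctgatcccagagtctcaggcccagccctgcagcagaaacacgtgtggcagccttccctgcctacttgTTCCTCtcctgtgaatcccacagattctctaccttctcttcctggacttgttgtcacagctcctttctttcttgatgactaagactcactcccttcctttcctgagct
Casp4 (chr9:5308599-5308848, plus strand): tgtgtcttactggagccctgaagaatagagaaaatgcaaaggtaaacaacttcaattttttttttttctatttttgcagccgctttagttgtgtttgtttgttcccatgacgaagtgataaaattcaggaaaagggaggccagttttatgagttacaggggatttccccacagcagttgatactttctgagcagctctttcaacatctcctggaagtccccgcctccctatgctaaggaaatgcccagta
The capitals in Il1a are a PU.1 core that begins 41 bases before the start and an AP-1 motif that begins 12 bases before it. The capitals in Il1rn are an AP-1 motif, and those in Casp1 a PU.1 core read on the opposite strand. The windows of Il1b and Casp4 held no match to any of the 5 motifs as spelled here. Other spellings of these motifs were not searched, so the lack of a match does not show that a site is absent. Among the members not shown, Nlrp3 held an NF-kB motif and Il1r1 a C/EBP motif. Over all 32817 promoters of the table, 3.58% held the NF-kB motif, 6.75% the AP-1 motif, 9.57% the C/EBP motif, 23.3% the PU.1 core and 7.12% the interferon-response motif. A match describes the letters in the window and is not evidence of binding.

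The deposited values are expression levels scaled for gene length and library size, which the authors named TPM, so levels of different genes can be compared within a table. Reads assigned to genes, recovered from the steps between values, numbered from 9282007 to 12515827 in the day 3 libraries and from 23886216 to 31092905 in the day 7 libraries, so low values are better resolved on day 7. Rod markers (10 genes summed) were at 10453 to 27980 on day 3 and 46680 to 67352 on day 7, which fits the retina label, and retinal pigment epithelium markers were also present in every library, at 62.3 to 831. Lasered replicate 1 of day 3 stood apart, with correlations of 0.876 to 0.932 with the other day 3 libraries, which correlated at 0.958 to 0.977 among themselves. Lasered replicate 2 of day 7 stood apart less, at 0.928 to 0.959 against 0.959 to 0.982. Results of the members that rest on these libraries are given with and without them. In such bulk samples, more cells of a type and more RNA per cell cannot be told apart.

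On day 3, 8 of the 10 genes were higher in every lasered library than in every control library, where 17.4% of all genes with any value were. The exceptions were Gsdmd and Nlrp3. No member passed the test at an adjusted p of 0.05 (limma with Benjamini-Hochberg adjustment over 16786 genes), as only 0.149% of all genes did. The unadjusted p was under 0.05 for 3 members (Il33, Il18 and Casp1), where 23% of all genes were under it, and limma's voom on the recovered reads called 0 members, with 4 at an unadjusted p under 0.05. On day 7, 2 of the 10 genes, Gsdmd and Il1a, were without overlap and above the controls, where 5.59% of all genes were. Again 0 members passed (limma, adjusted over 15592 genes, 0.244% of all genes called), with 0 at an unadjusted p under 0.05, where 3.94% of genes were, and 1 by voom. The plot of values by library shows both days.

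**Figure D1:**
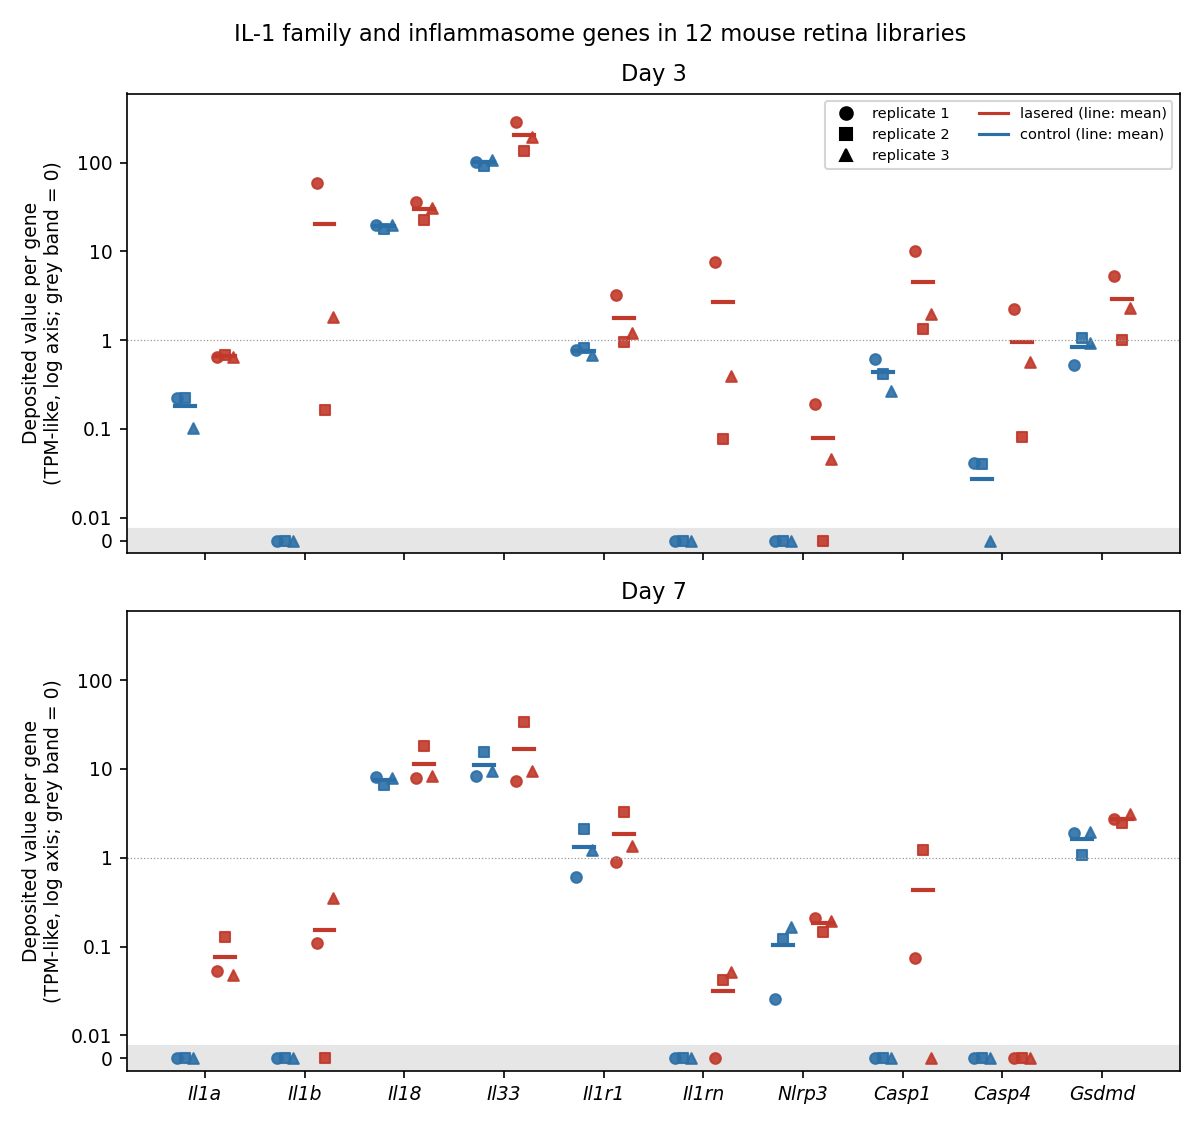
Deposited value (log axis, with values of 0 in the grey band) of the 10 genes in each of the 12 libraries, lasered in red and control in blue, with the replicate as the marker shape and the group mean as a line. On day 3 the lasered libraries lie above the controls for 8 of the 10 genes and lasered replicate 1 is far above the others for Il1b, at 58.7; on day 7 Il33 and Il18 are highest in lasered replicate 2.

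Whether a member could be tested depended on its level, since the test took only those whose value averaged 1 or more over a day's 6 libraries. On day 3, 7 members qualified. Only Il18 and Il33 would have done so from their control libraries alone, and the other 5 entered through the lasered libraries, so the positive sign of all 7 differences (median 0.96 on the log2(value + 1) scale) is partly set by that choice. Over all genes tested on day 3 the median difference was 0.16, and it became -0.03 when libraries were rescaled by median-of-ratios. With that rescaling the 7 members kept a positive sign, with Il18 at 0.37 and Il33 at 0.73. On day 7, 4 members qualified, all from their controls alone, with a median difference of 0.37 against 0.055 over all genes.

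Among the ligands, Il33 had the highest group means of the 10 genes on both days. It encodes a nuclear cytokine of the IL-1 family that acts as an alarm signal when released, and it lies at chr19:29925114-29960718 on the plus strand (mm10). On day 3 its value was 285, 134 and 194 in lasered replicates 1, 2 and 3 and 103, 91.0 and 108 in the controls. The lowest lasered library exceeded the highest control, and the counts behind these values were large, at 1571 to 4036 reads. The means were 205 ± 75.9 in lasered and 100.5 ± 8.50 in control retinas (SD, n = 3), a ratio of 2.04, which was 1.63 without lasered replicate 1. The difference was 0.96 ± 0.26 (SE) on the log2(value + 1) scale, with an adjusted p of 0.112 by limma, the smallest among the members.

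On day 7 Il33 was at 7.27, 33.4 and 9.54 in the lasered libraries and at 8.44, 15.6 and 9.54 in the controls. The groups overlapped, and replicate 2 was the highest library within each of them. The difference of 0.29 ± 0.53 (SE, log2 scale, limma adjusted p = 0.9998) turned to -0.34 without lasered replicate 2, and the mean of the differences within replicate numbers 1 and 3 was -0.10. Control levels also lay apart between the tables, at 100.5 on day 3 and 11.2 on day 7, a ratio of 8.98. The tables were normalized separately, and the libraries of the 2 days also differ in depth and in the share of mitochondrially encoded transcripts, which was 15.7% to 22.7% on day 3 and 1.10% to 4.21% on day 7. The part of these differences in the level of Il33 was not tested.

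Il18 encodes the other caspase-1 substrate cytokine and lies at chr9:50554827-50581840 on the plus strand. Its day 3 value was 36.4, 22.7 and 30.8 in the lasered libraries and 19.8, 18.01 and 19.7 in the controls, again without overlap. The means were 29.97 ± 6.92 and 19.2 ± 1.02 (SD, n = 3), a ratio of 1.56, or 1.39 without lasered replicate 1, and the difference of 0.59 ± 0.19 (SE, log2 scale) had an adjusted p of 0.135 by limma. On day 7 it was at 7.97, 18.2 and 8.38 in the lasered libraries and at 8.12, 6.67 and 8.00 in the controls. Lasered replicate 2 stood far above the controls, replicate 3 just above their highest and replicate 1 within their range. The difference of 0.45 ± 0.32 (SE, limma adjusted p = 0.9998) was 0.10 without it. Il33 and Il18 were the only members with a control mean above 1 on both days.

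Il1b, the gene of IL-1 beta, lies at chr2:129364570-129371139 on the minus strand, 54597 bases from Il1a. It had 0 reads in the 3 day 3 controls, where 3 reads correspond to a value of 0.235 to 0.312. In the lasered libraries of day 3 its value was 58.7, 0.162 and 1.85, from 549, 2 and 19 reads. Nearly all of the signal was thus in lasered replicate 1, and replicate 2 was at the level of a few reads. The lasered mean was at least 77.2-fold higher than a control mean of 3 reads per library, and at least 3.83-fold higher without lasered replicate 1. The difference of 2.54 ± 1.29 (SE, log2 scale) had an adjusted p of 0.283 by limma, and without lasered replicate 1 the gene was too low to test. On day 7 the lasered libraries held 2, 0 and 7 reads and the controls 0, so the gene was near the detection limit in all of them.

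Il1a, the gene of IL-1 alpha, was low but even. It lies at chr2:129299610-129309972 on the minus strand, and its day 3 value was 0.638, 0.679 and 0.652 in the lasered libraries and 0.221, 0.226 and 0.102 in the controls. The 3 lasered values were close to each other, and replicate 1 was not the highest. The reads were 6, 9 and 7 against 3, 3 and 1, a ratio per assigned read of 3.35 with an exact 95% interval of 1.38 to 9.28 for counting error only, and the ratio of mean values was 3.59. The gene was under the level tested. With no filter the difference was 0.49 on the log2(value + 1) scale with an adjusted p of 0.194 by limma. On day 7 there were 1, 2 and 1 reads in the lasered libraries and 0 in each control. Il1a shares 222 exon bases with an antisense gene, Gm14023, which was at 3.42, 1.76 and 4.13 in the lasered day 3 libraries and at 1.88, 2.75 and 3.15 in the controls. The library kit keeps strand, but the sources used here do not say whether the counting used it, so reads of this pair may be mixed.

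Il1r1, the signalling receptor for IL-1 alpha and IL-1 beta, lies at chr1:40225080-40317257 on the plus strand. On day 3 it was at 3.21, 0.953 and 1.20 in the lasered libraries and at 0.772, 0.824 and 0.682 in the controls. The groups did not overlap, but lasered replicates 2 and 3 were close to the controls. The means were 1.79 ± 1.24 and 0.759 ± 0.0715 (SD, n = 3), with a ratio of 2.36 that fell to 1.42 without lasered replicate 1, and the difference of 0.58 ± 0.31 (SE, log2 scale) had an adjusted p of 0.309 by limma. On day 7 it was at 0.894, 3.24 and 1.36 in the lasered libraries and at 0.601, 2.13 and 1.21 in the controls. These groups overlapped, replicate 2 being the highest in both, and the difference of 0.26 ± 0.39 (SE, limma adjusted p = 0.9998) was -0.08 without lasered replicate 2, whose numbered control stays in that value. Within equal replicate numbers, which deviate together in part on day 7, the lasered library was higher in 3 of 3, by 0.24, 0.44 and 0.09 on the log2(value + 1) scale. With the number as a block the limma adjusted p of Il1r1 was 0.823.

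Il1rn, whose product blocks that receptor, lies at chr2:24336853-24351494 on the plus strand and had 0 reads in the controls of both days. On day 3 its value was 7.62, 0.0769 and 0.399 in the lasered libraries, from 210, 3 and 12 reads. As for Il1b, replicate 1 carried most of the signal. The lasered mean was at least 29.9-fold higher than 3 reads per control library, and at least 2.64-fold without replicate 1, and the difference of 1.23 ± 0.73 (SE, log2 scale) had an adjusted p of 0.35 by limma. Within each lasered day 3 library the value of Il1rn was below that of Il1b, with ratios of 0.130, 0.474 and 0.216. The ratio in replicate 2 rests on 3 reads of Il1rn and 2 of Il1b, too few to tell the values apart. On day 7 the lasered libraries held 0, 2 and 3 reads.

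Nlrp3, the sensor of the best known inflammasome, was close to the detection limit throughout and lies at chr11:59541568-59566956 on the plus strand. The lasered day 3 libraries held 4, 0 and 1 reads and the controls 0. On day 7 its value was 0.208, 0.147 and 0.194 in the lasered libraries and 0.0255, 0.123 and 0.164 in the controls, from 21 and 11 reads in all, and the groups overlapped. It was not tested on either day, and a difference was not detectable at this depth.

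Casp1, the protease that matures IL-1 beta and IL-18, lies at chr9:5298517-5307265 on the plus strand. On day 3 its value was 10.2, 1.33 and 1.97 in the lasered libraries, from 76, 14 and 16 reads, and 0.618, 0.415 and 0.266 in the controls, from 6, 4 and 2 reads. All 3 lasered libraries exceeded all controls, and lasered replicate 1 was again the highest. The means were 4.50 ± 4.94 and 0.433 ± 0.177 (SD, n = 3), a ratio of 10.4, which was 3.81 without lasered replicate 1. The difference of 1.58 ± 0.56 (SE, log2 scale) had an adjusted p of 0.157 by limma, and the gene was too low to test without that library. On day 7 the controls held 0 reads and the lasered libraries 1, 16 and 0, so the signal was in replicate 2 alone.

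Casp4, the sensor and protease of the noncanonical pathway, starts 1562 bases after the end of Casp1, at chr9:5308828-5336783 on the same strand. On day 3 its value was 2.22, 0.0809 and 0.570 in the lasered libraries, from 41, 2 and 11 reads, and 0.0412, 0.0400 and 0 in the controls, from 1, 1 and 0 reads. The order of the lasered libraries was the same as for Casp1. In all, 54 lasered reads stood against 2, a ratio per assigned read of 28.8 with an exact 95% interval of 7.59 to 244 for counting error only, and without lasered replicate 1 it was 9.77 with an interval of 2.21 to 89.2. With no filter on level the difference was 0.78 ± 0.37 (SE, log2 scale) with an adjusted p of 0.421 by limma. On day 7 it had 0 reads in all 6 libraries. Casp1 and Casp4 are related genes, and the sources used here do not say how reads that match more than 1 gene were counted.

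Gsdmd, the gene of the pore-forming gasdermin D, lies at chr15:75862327-75867408 on the plus strand. On day 3 it was at 5.32, 1.01 and 2.32 in the lasered libraries and at 0.519, 1.05 and 0.920 in the controls. Lasered replicate 2 lay within the control range, so the groups overlapped. The ratio of the means, 2.89 ± 2.21 to 0.828 ± 0.275 (SD, n = 3), was 3.49 and fell to 2.02 without lasered replicate 1, and the difference of 0.94 ± 0.40 (SE, log2 scale) had an adjusted p of 0.221 by limma. On day 7 it was at 2.71, 2.47 and 3.11 in the lasered libraries and at 1.89, 1.06 and 1.93 in the controls. Here the groups did not overlap and the lasered libraries were even, with means of 2.76 ± 0.321 and 1.63 ± 0.492 (SD, n = 3) and a ratio of 1.70. The difference of 0.53 ± 0.25 (SE, log2 scale) had an adjusted p of 0.9998 by limma, and it was positive with each library left out. With the replicate number as a block its limma p was 0.0355 unadjusted, where 1203 of 15592 genes were under 0.05, and 0.581 adjusted.

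**Figure D2:**
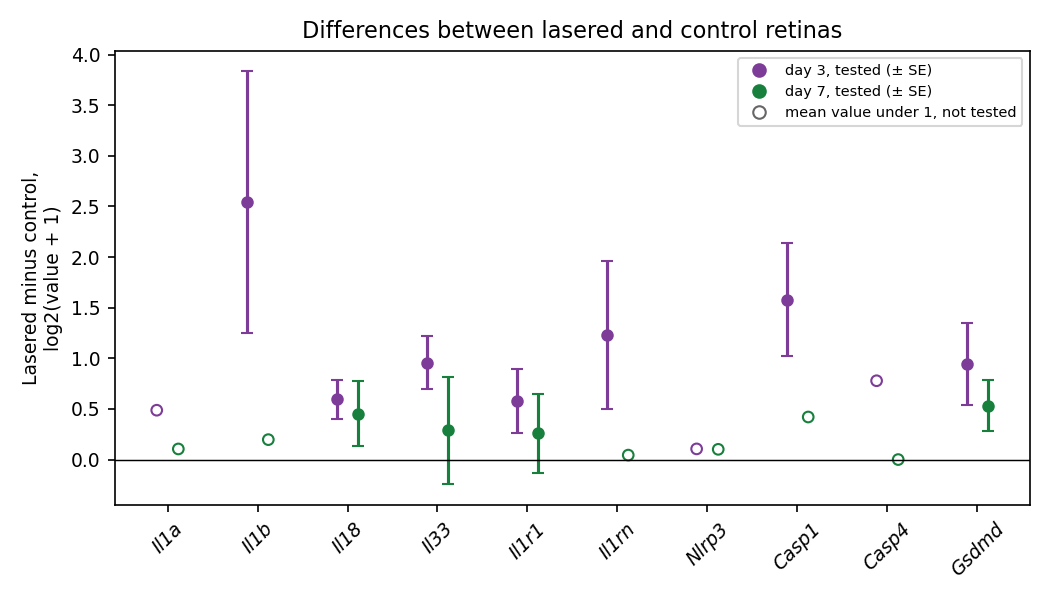
Lasered minus control difference on the log2(value + 1) scale for each of the 10 genes on day 3 (purple) and day 7 (green), with bars of 1 SE for genes that were tested and open circles for genes with a mean under 1. The largest day 3 difference is that of Il1b, at 2.54, and it also has the widest bar, at 1.29.

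The members thus differed in how they reached their day 3 difference. In 9 of the 10 genes the lasered libraries ran in the order of replicate 1, 3 and 2, with replicate 1 the highest of the 6 libraries, the exception being Il1a. Over all genes tested on day 3 that order was found in 22.6%, and replicate 1 was the highest in 39.8%. On day 7, lasered replicate 2 was the highest library in 5 of the 10 genes, where 41.8% of genes had it highest.

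Whether the laser difference itself changed between the days was tested for the 6 members with a sufficient level over the 12 libraries. All 6 differences were smaller on day 7, from -2.35 for Il1b and -1.16 for Casp1 to -0.67 for Il33, -0.41 for Gsdmd, -0.32 for Il1r1 and -0.14 for Il18 (day 7 minus day 3, log2 scale), where the median over all genes was -0.11. Il1b and Casp1 reached the level tested only through the lasered libraries of day 3. Their negative sign is therefore partly set by that choice, and their values are a description. Without lasered replicate 1 of day 3, the values turned to 0.0079 for Il18, 0.0189 for Il1r1 and 0.0205 for Gsdmd, and Il1b and Casp1 were too low to test. None passed (limma interaction, adjusted p from 0.662 to 0.978 over 17611 genes, of which 0% were called). At an unadjusted p under 0.05 there were 0 of these members, where 9.39% of genes were, and voom called 0 with 0 at an unadjusted p under 0.05. A change between the days was therefore not shown for any member.

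Markers of several cell types varied with the members, blood-derived cells among them. On day 3 neutrophil markers (10 genes summed) were at 1145, 8.60 and 66.2 in lasered replicates 1, 2 and 3 and at 5.07 to 7.35 in the controls, with Ly6g at 0 in every control. Monocyte and macrophage markers were at 932, 76.9 and 127 against 15.1 to 18.5, with Ccr2 at 0 in every control, and microglia markers at 103, 72.9 and 77.7 against 32.8 to 34.6. The libraries thus had the same order, replicate 1, then 3, then 2, as 9 of the members, and for neutrophil markers replicate 2 was near the controls, as it was for Il1b and Il1rn. Of the 10 markers in each list, 3 neutrophil, 9 monocyte and macrophage and 7 microglia markers were above every control in all lasered libraries. The microglia markers P2ry12 and Siglech were below every control in lasered replicate 1, at 2.54 against 5.81 to 10.1 and at 0.237 against 0.872 to 2.35. In lasered replicates 2 and 3, P2ry12 was at 8.48 and 8.04 and Siglech at 1.76 and 2.67. Rod markers ran the other way, at 10453, 25664 and 19189 in lasered replicates 1, 2 and 3 against 22151 to 27980 in the controls. Müller glia markers were at 2499, 2476 and 2337 against 1679 to 1941, with 6 of 10 above every control and 1 below. The latter was Glul, at 67.2, 285 and 238 against 310 to 318. In lasered replicate 1, Car14 was at 35.7 against 119 to 128 and Rlbp1 at 268 against 470 to 623. Lymphocyte markers were at 9.96, 1.92 and 1.24 against 1.12 to 1.88, with Cd3d and Cd3g at 0 in the controls. Astrocyte markers (5 genes summed) were at 451, 137 and 153 against 31.0 to 42.1, in the same order as 9 of the members. Most of the lasered sum was Gfap, at 412, 93.8 and 104 against 5.32 to 8.68. Of the 5 markers, 2 were above every control in all lasered libraries. S100b and Pdgfra were lower in lasered replicate 1 than in every control. Pax2 was at 0 in the controls and in lasered replicates 2 and 3, and at 0.0371 in lasered replicate 1. The sum of endothelial markers was at 101, 65.2 and 56.0 against 39.2 to 45.5, with 5 of 10 markers above every control in all lasered libraries. Markers of corneal and conjunctival epithelium were at 4.20 to 10.2 against 1.69 to 3.47, with 1 of 10 above every control in all lasered libraries. The share of mitochondrially encoded transcripts was lower in every lasered library, at 15.7% to 19.0%, than in every control, at 20.9% to 22.7%. The part of these cells and of this share in the values of the members was not tested.

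On day 7 monocyte and macrophage markers were at 143, 129 and 105 in the lasered libraries and at 16.8 to 21.5 in the controls, and microglia markers at 238, 253 and 288 against 89.2 to 98.4. Both sums were thus above every control in each lasered library. Il1b, Il1rn and Casp4 had at most 7 reads in any lasered library, Casp1 had 1, 16 and 0, and Gsdmd and Il1a were above every control. The part of these cells in the values of the members was not tested. In each list 7 of 10 markers were above every control in all lasered libraries. Most of the monocyte and macrophage sum in lasered retina was Lyz2, at 69.6 to 105. Ccr2, Ly6c2 and Plac8 were at 0.378 or less and overlapped the controls, as did the microglia markers P2ry12, Tmem119 and Sall1. Neutrophil markers were at 42.2, 34.6 and 46.0 against 30.7 to 35.5. Most of that sum was Mmp9, at 29.5 to 41.0, and Ly6g, Cxcr2, Mmp8 and Retnlg were at 0 in every control. Ly6g and Mmp8 were at 0 in the lasered libraries as well. Cxcr2 was at 0.123 in lasered replicate 3 and Retnlg at 0.597 in lasered replicate 2, and both were at 0 in the other lasered libraries.

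**Figure D3:**
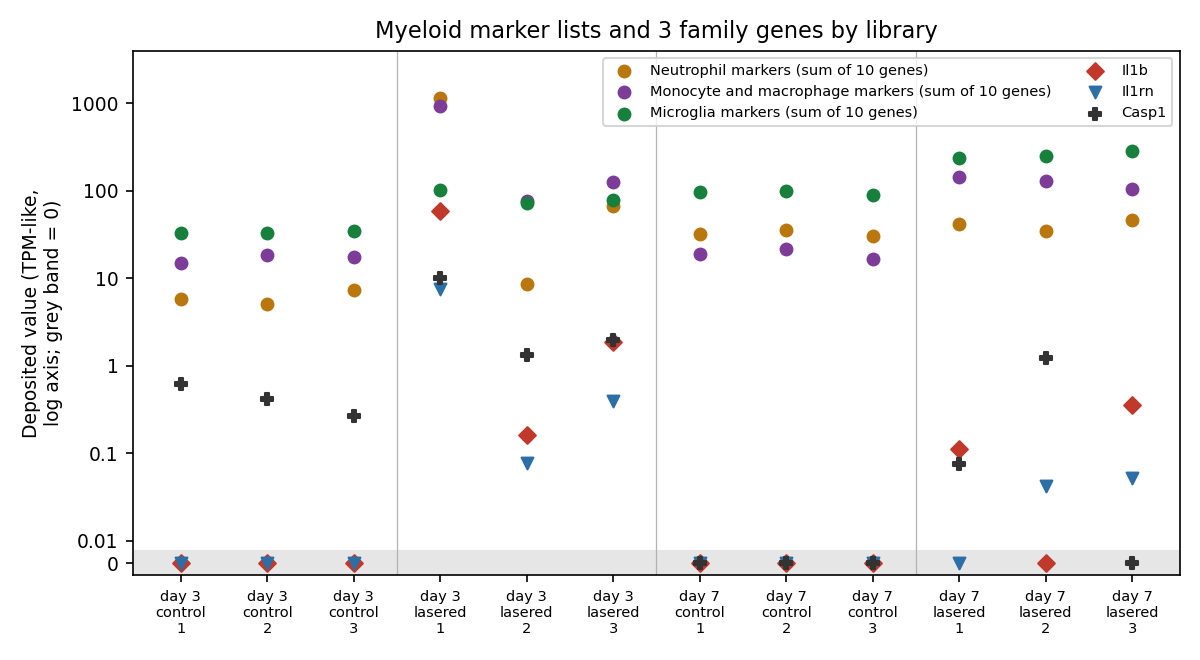
Summed value of 10 neutrophil, 10 monocyte and macrophage and 10 microglia markers, with Il1b, Il1rn and Casp1, in each of the 12 libraries (log axis, with values of 0 in the grey band). On day 3 all of these are highest in lasered replicate 1, where neutrophil markers reach 1145. On day 7 the macrophage and microglia sums lie above the controls. That day Il1b and Il1rn are at 0.356 or less, and Casp1 is at 1.23 in lasered replicate 2.

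The other genes of the pathway, 58 measured of 59 listed, gave 28 that could be tested on day 3, of which 6 entered through the lasered libraries. None passed (limma, 0 called, voom 0). At an unadjusted p under 0.05 there were 13 by either tool, those of limma all higher in lasered retina, where 23% of all genes tested were under it. Of the 28, 23 had a positive difference, with a median of 0.52 against 0.16 over all genes, and 23 of the 58 were above every control in all lasered libraries, where 17.4% of all genes with any value were. The positive sign of the 6 is partly set by how they entered, which raises the counts and the median of the 28. The list was also chosen with earlier results of these data known, so these counts are a description. The smallest adjusted p was that of Gbp2, an interferon-induced guanylate-binding protein that helps to open bacteria to caspase-11, at 107, 22.2 and 25.3 against 5.24, 3.46 and 3.53. Its difference of 3.01 ± 0.56 (SE, log2 scale) had an adjusted p of 0.0883 by limma, and without lasered replicate 1 the difference was 2.30 with an adjusted p of 0.00450, past the threshold. Leaving out that library called 294 of 16396 genes, against 25 of 16786 in the main analysis. For Gbp2 all 3 lasered libraries stood well above the controls.

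Receptor-proximal signalling was measured best, with 12 of 13 genes tested, 10 higher and 4 at an unadjusted p under 0.05, against 23% of all genes, and 1 of the 12 entered through the lasered libraries. Myd88, the adaptor shared by IL-1 family and Toll-like receptors, was at 45.4, 9.47 and 9.66 in the lasered and 2.36, 4.63 and 3.284 in the control libraries of day 3, with a limma adjusted p of 0.116. The ratio of its means was 6.28, and 2.79 without lasered replicate 1 (limma adjusted p = 0.0506). On day 7 Myd88 was at 23.0, 21.7 and 22.6 against 14.03, 13.9 and 14.8, the smallest p of the pathway genes that day, with a difference of 0.62 ± 0.15 (SE, log2 scale) and a limma adjusted p of 0.398. Both groups of day 7 were narrow and far apart relative to their spread. By contrast Tab1 and Ecsit, which act with the kinases and adaptors downstream and were among the highest pathway genes by mean, gave differences of -0.0012 and -0.03 (log2 scale) on day 3 and 0.09 and -0.15 on day 7. Tollip, a negative regulator that binds the IRAK kinases, was at 22.1 ± 3.54 in lasered and 16.3 ± 2.06 in control retinas (SD, n = 3) on day 3. Those groups did not overlap, and its limma p was 0.0429 unadjusted and 0.202 adjusted. On day 7 Tollip was at 124 ± 4.19 and 123 ± 2.28 (SD, n = 3). Irak4, the first kinase recruited by MYD88, was at 1.64, 1.72 and 1.78 against 0.767, 0.924 and 0.814 on day 7. It was tested that day only through its lasered libraries, so its difference of 0.56 ± 0.22 (SE, log2 scale, limma adjusted p = 0.9998) is a description.

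Of the inflammasome sensors and adaptors 6 of 20 could be tested on day 3, with 4 higher and the same number at an unadjusted p under 0.05, against 23% of all genes. Of the 6, 1 entered through the lasered libraries. Txnip, a redox regulator that binds NLRP3, was at 18.5 ± 2.77 against 12.3 ± 1.58 (SD, n = 3) on day 7, with a limma adjusted p of 0.973. Gbp2 was at 5.70, 35.6 and 7.28 against 1.14, 2.20 and 2.95 that day, highest in lasered replicate 2. Its difference of 2.08 ± 0.63 (SE, log2 scale, limma adjusted p = 0.777) was 1.31 without that library (limma adjusted p = 0.307). P2rx7, the ATP-gated channel upstream of NLRP3, named here after its values were seen, was above every control on both days, at 0.645, 0.322 and 0.344 against 0, 0.176 and 0.198 on day 3 and at 0.582, 1.42 and 0.707 against 0.173, 0.434 and 0.424 on day 7, and was too low to test.

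Of the other caspases and pore-forming effectors 5 of 10 were tested on day 3, with 4 higher and 4 at an unadjusted p under 0.05, against 23% of all genes, and 2 of the 5 entered through the lasered libraries. Ninj1, which ruptures the membrane late in lytic cell death, was at 53.8, 18.9 and 19.95 against 4.64, 11.9 and 7.30 (limma adjusted p = 0.103), with a ratio of 3.89 that was 2.45 without lasered replicate 1 (limma adjusted p = 0.115), and at 34.5 ± 7.54 against 33.0 ± 3.71 (SD, n = 3) on day 7. Prtn3, a neutrophil serine protease, was at 3.30, 0.981 and 1.71 against 0, 0.0823 and 0.570 on day 3 and at 4.02, 2.37 and 2.85 against 2.26, 1.35 and 1.13 on day 7. On day 3 Prtn3 was tested only through its lasered libraries, so its limma adjusted p of 0.112 is a description. The related neutrophil proteases Elane and Ctsg had at most 3 reads in any library.

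On day 7, 21 pathway genes were tested and 0 passed (limma, 5 at an unadjusted p under 0.05, where 3.94% of all genes were, voom 0 and 6). Of the 21, 17 had a positive difference with a median of 0.18 against 0.055 over all genes, and 11 of the 58 were above every control, where 5.59% of all genes with any value were. Irak4 entered that day only through its lasered libraries, and the list was chosen with earlier results known, so these counts are a description.

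**Figure D4:**
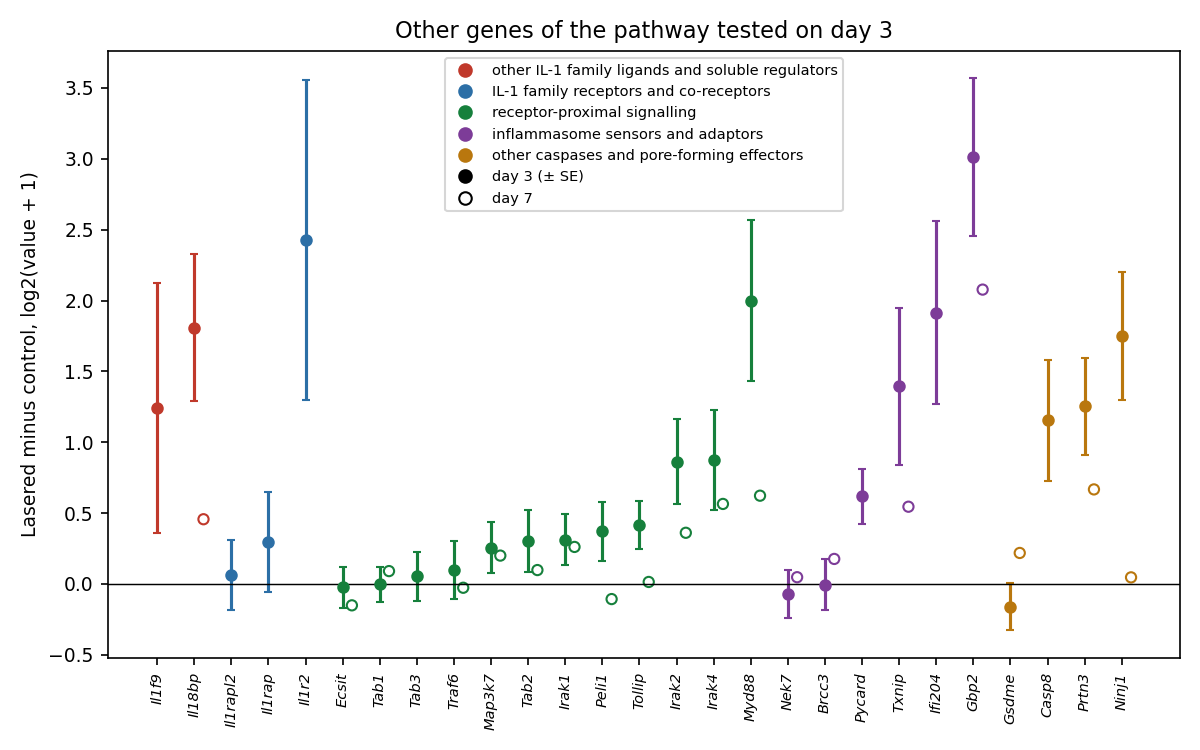
Lasered minus control difference on the log2(value + 1) scale for other pathway genes tested on day 3, grouped by role in colour, with bars of 1 SE, and as open circles the day 7 difference where it was tested. The largest day 3 difference is that of Gbp2, at 3.01, with 2.08 on day 7.

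The soluble and decoy regulators were read beside their partners, as a choice made after their values were seen. Il1r2, a receptor that binds IL-1 without signalling, was at 55.9, 0.866 and 3.02 in the lasered and 0.561, 0.467 and 0.198 in the control libraries of day 3. Its ratio to Il1r1 was 17.4, 0.908 and 2.51 in the lasered libraries and 0.291 to 0.726 in the controls, so in replicate 1 the decoy exceeded the signalling receptor by far. The ratio of the lasered to the control mean of Il1r2 was 48.8, and 4.76 without replicate 1. Il1r2 was tested only through its lasered libraries, so its limma adjusted p-values of 0.248 and 0.215 are a description. Il18bp, the secreted protein that neutralises IL-18, was at 30.8, 6.15 and 7.94 against 2.32, 2.80 and 2.75, and its ratio to Il18 was 0.846, 0.271 and 0.258 in the lasered libraries against 0.117 to 0.155 in the controls. All 3 ratios lay above the controls on day 3, while on day 7 they were 1.32, 0.749 and 1.22 against 0.758 to 1.37 and overlapped. Il18bp had an adjusted p of 0.117 by limma on day 3, and of 0.0329, past the threshold, without lasered replicate 1, where 294 of 16396 genes were called. The receptor for IL-33, Il1rl1, and the receptors for IL-18, Il18r1 and Il18rap, had at most 5 reads in any library, except for 18 reads of Il18rap in lasered replicate 1 of day 3. Il1f9, the gene of IL-36 gamma, had 91 reads in that same library and at most 2 in any other.

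The genes whose pattern was most like that of a member were found for the 4 members whose value averaged 1 or more on each day, by Pearson correlation over the 12 libraries after the mean of each day was removed, among 12908 genes. For Il33 these were Eif3j1 at 0.984, Gm15500 at 0.981 and Cfl2 at 0.981, and for Il18 they were Ostc at 0.969, Lamp5 at 0.967 and Tubb4b-ps1 at 0.965. For Il1r1 they were Fstl1 at 0.984, Sdcbp at 0.980 and Dner at 0.980, and for Gsdmd they were Psme1 at 0.965, Mxra8 at 0.961 and Ifi30 at 0.961. These values describe 12 libraries that share depth and the libraries that stand apart.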

How the data were processed

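Poly(A) RNA of 12 mouse retinas was sequenced from directional libraries, per the labels' protocols. The submitters' processing notes name the mm10 build, STAR 2.7.0 and edgeR 3.28.0, and the sources used here give neither the counting tool nor the annotation. The authors deposited 1 table per day, named as TPM. The deposited values were treated as a signal, since column sums ran from 953049 to 1045986, and the test set for TPM was kept. Multiplied by GENCODE M21 exon lengths (53681 of 54367 genes have the same position) and with a factor of 0.955 to 1.05 that cycles with table position removed, the values under 20 reads were whole, within 0.05, for 99.75% to 99.8% of them in each library (10% by chance). These are the recovered reads. Limits from 3 reads cover counting error only. A gene of 1 kb with 3 reads had a value of 0.445 to 0.605 on day 3 and of 0.292 to 0.380 on day 7.

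Each day was fitted over all genes of its table in R 4.3.3 with limma 3.58.1 (lmFit, eBayes with trend, 2-sided) on log2(value + 1), a scale that understates the change of low genes, for genes averaging 1 or more, with Benjamini-Hochberg adjustment and a threshold of 0.05. The difference between days was the interaction over 12 libraries. The steps were tested on simulated data. Summaries and plots used matplotlib 3.10.9, NumPy 2.4.6, pandas 2.3.3 and Python 3.11.15. An exact permutation test of 3 against 3 cannot go below 0.1, so none was run. Members, pathway genes and markers were chosen with earlier results of these data known. Named were all members, per day the 5 pathway genes with the smallest p and the 3 highest by mean (1 of these genes is not reported here), and the 3 genes most like each member averaging 1 or more on both days. Same-numbered libraries deviated together on day 7 for numbers 1 and 2 and weakly for number 3 (correlations of 0.485, 0.559 and 0.128). On day 3 they did not (0.0413, 0.0162 and 0.0766). The 3 deviations within a group depend on each other, so these correlations do not settle whether equal numbers mark the eyes of 1 mouse. Alternatives were a replicate block, no filter, a minimum mean of 5, a pseudocount of 0.1, median-of-ratios rescaling, library weights, a joint fit, each library left out, and, added after the data were seen, the cyclic factor undone and voom on recovered reads.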

Additional observations from a re-analysis of the deposited data

How the results depend on the processing

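No member was called on either day or for the difference between days under any alternative. Of 270 recomputed differences of single members, 261 kept their sign and their side of the threshold, and the 9 others changed sign without passing. On day 7, Il33 turned to -0.0875 with library weights and -0.34 without lasered replicate 2 (range 1 library out, -0.34 to 0.69), and Il1r1 to -0.0554 and -0.0778 (range -0.0778 to 0.50). For the difference between days, Il18 turned to 0.0079 without lasered replicate 1 of day 3, to 0.0522 without lasered replicate 1 of day 7 and to 0.0196 without lasered replicate 3 of day 7 (range -0.50 to 0.0522). Without lasered replicate 1 of day 3, Il1r1 turned to 0.0189 (range -0.66 to 0.0189) and Gsdmd to 0.0205 (range -0.80 to 0.0205). The cause was not tested. Across alternatives, which include a pseudocount of 0.1 and read counts as other scales, the day 3 difference ran from 0.68 to 1.22 for Il33, 0.37 to 0.77 for Il18, 1.04 to 2.65 for Casp1, 0.51 to 1.502 for Gsdmd, 0.33 to 1.00 for Il1r1, 1.31 to 5.76 for Il1b and 0.56 to 5.30 for Il1rn, and the lowest adjusted p among them was 0.0743, for Casp1. Without lasered replicate 1 of day 3, Il1b, Il1r1, Il1rn and Casp1 fell under the level tested, and a minimum mean of 5 left out Il1r1, Il1rn, Casp1 and Gsdmd. Of the pathway genes on day 3, 1 was called with library weights (Gbp2) and 6 in the joint fit (Gbp2, Myd88, Ninj1, Prtn3, Il18bp and Ifi204). Over all 16786 genes these settings called 369 and 1139. Prtn3 and Ifi204 were tested that day only through their lasered libraries. With 1 library left out 0 to 2 were called, the 2 being Gbp2 and Il18bp without lasered replicate 1, where 294 of 16396 genes were called. With the replicate block 0 members and 0 pathway genes were called on either day, and no member's call changed.

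Counts over all genes moved more. On day 3 they were 25 in the main analysis, 0 with the replicate block, 0 with no filter, 14 with median-of-ratios rescaling, 13 by voom, 369 with library weights, 1139 in the joint fit and 0 to 294 with 1 library left out. On day 7 they were 38 in the main analysis, 53 with the replicate block, 13 with no filter, 24 with median-of-ratios rescaling, 18 by voom, 114 with library weights, 25 in the joint fit and 0 to 41 with 1 library left out. For the difference between days they were 0 in the main analysis, 28 with no filter, 2 with a pseudocount of 0.1, 1119 with library weights and 0 to 3 with 1 library left out. Depth limits Il1a, Nlrp3 and Casp4, and Il1b, Il1rn and Casp1 on day 7, where most libraries held under 10 reads.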
